A study of Mus musculus with 35 samples.

Results

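ODR is the label of 1 of the factor combinations with which mouse cells were infected in a study of reprogramming by the transcription factor Oct4 and the histone demethylase Kdm2b. The data described here are its cultures without the growth factor BMP4 at day 6 (3 libraries) and at day 14 (3 libraries). They are 6 of the 35 libraries of poly-A RNA sequencing in the series. The choice went by those labels, with earlier results of these data known. The comparison asks what changed in these cells over the later days of culture. All cultures were kept in the reprogramming medium iCD1. ODR libraries from day 1 (2 libraries) serve as an earlier reference. The cultures labelled OA (3 libraries at day 6 and 3 at day 14) and OB (4 and 3), also without BMP4, serve for comparison. The statistical fit also held OA and OB libraries of day 1 without BMP4 (2 each). It further held day 6 libraries with BMP4 at 10 ng/ml, 2 of OB and 1 of ODR. These added libraries enter the tests only through the shared estimate of spread. The labels expand neither ODR nor OA nor OB, and the strain and age of the starting cells and the origin of the replicates are not given in the sources used here, so the spread between libraries that the p-values measure could be technical.

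The deposited values are normalized scores per gene, not read counts, so the depth behind each value is unknown. They have a ceiling of 18690 that 10 genes reached in each of the 6 libraries. Just below the ceiling the scale is coarse: no gene lay between 9314 and the ceiling, and none between 7101 and 9294. A change that starts or ends at these levels is a step of that scale, and its size is known only to that step. The columns of the 6 libraries summed to between 4369336 and 4398785.

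The library labelled ODR day 6 replicate 3 held the same values, at all 21350 genes, as a library labelled ODR with BMP4 at 10 ng/ml. Genes that BMP signalling induces directly stood at the level of the untreated libraries in it. Id1, for example, was 39 and 50 in ODR day 6 replicates 1 and 2, 37 in the shared library and 1046 in the other library labelled with BMP4. Smad6, an inhibitor of the pathway, was listed at 0 in the first 3 of these and was 662 in the last. The shared library was left out of the main test, which leaves 2 libraries at day 6 and 3 at day 14, and counts of called genes are also given with it as an additional day 6 library where it moved them. Below, day 6 values are given for replicates 1 and 2 and then for the shared library. A library labelled OA day 14 replicate 2 stood apart as well. Its value for Kdm2a, the demethylase related to Kdm2b, was 721, and the other 5 OA libraries of these days were at the ceiling for this gene.

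During reprogramming towards pluripotency, fibroblast-like cells usually lose mesenchymal genes and switch on stem cell and epithelial genes, and cells that do not complete the change can go on dividing, stop dividing or take up genes of other tissues. Oct4, encoded by Pou5f1, is a core factor of pluripotency. Kdm2b directs a variant Polycomb complex, PRC1.1, to CpG islands. Nt5e encodes CD73, a surface enzyme that makes adenosine and is a common marker of mesenchymal stromal cells, and Sox1 encodes a transcription factor of neural progenitors.

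The ODR libraries had fibroblast genes and lacked most stem cell genes on both days. Col1a1, a collagen chain of fibroblasts, was between 2720 and 3492 at day 6 and between 3320 and 4621 at day 14, and the fibroblast surface marker Thy1 was between 1242 and 1350 and between 863 and 1046. Pou5f1 was at the ceiling in all 6 libraries, so a change in it could not be measured. The stem cell factors Nanog, Esrrb and Sox2 did not exceed 10 in any of the 6, and Zfp42 and the epithelial cadherin gene Cdh1 were listed at 0 in all of them. Myod1, which defines muscle, and Adipoq, which defines adipocytes, were also listed at 0 in all 6. Kdm2b was 230, 278 and 240 at day 6 and 310, 236 and 240 at day 14 (log2 fold change 0.04 ± 0.25, SE, adjusted p = 0.960), so these groups overlapped.

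Between day 6 and day 14, 558 of 12480 genes tested (4.47%) changed in ODR, of which 316 (2.53%) rose and 242 (1.94%) fell. The test was limma's moderated test on log2(value + 1), two-sided, with Benjamini-Hochberg adjustment over all genes tested and a threshold of 0.05, and fold changes on this scale understate the change of genes with low values. The median size of a called change was 1.12 on the log2 scale, and 321 called genes changed by at least 1. The day 6 and day 14 libraries, with the shared library counted, did not overlap at 538 of the 558 genes and at 31.0% of all genes tested, a description only, since the same libraries gave the calls. With the shared library in the test, 1117 genes (8.95%) were called, 566 higher (4.54%) and 551 lower (4.42%), and 531 of the 558 were among them in the same direction. The count fell to 143 without day 6 replicate 1, 198 without day 6 replicate 2, 291 without day 14 replicate 1 and 329 without day 14 replicate 2, and it was 1108 without the library labelled OA day 14 replicate 2, which enters through the shared estimate of spread. Counts for gene lists below cover the members that passed the filter on low values, and a gene that is low on 1 day can pass through the other. List counts given with the shared library stand beside its larger shares of all genes, 4.54% higher and 4.42% lower. In bulk RNA, a change in the number of cells of a type and a change in RNA per cell cannot be told apart, and this holds for every change below.

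Nt5e (chromosome 9, 88327197 to 88372092, plus strand, build GRCm38) rose to the ceiling. It was 1936 and 1779 at day 6, with 1364 in the shared library, and 9302, 18690 and 18690 at day 14. Every day 14 library lay above every day 6 library, and the fitted fold change was 3.0 ± 0.35 (adjusted p = 9.83e-05), with all 3 day 14 values on the coarse steps at the top of the scale. At day 1 it had been 18 and 16. Sox1 was 108, 160 and 116 at day 6 and 575, 584 and 388 at day 14. Its libraries did not overlap either, but the fold change of 1.94 ± 0.69 did not pass the test (adjusted p = 0.122), and it passed with the shared library (2.0, adjusted p = 0.0434). Among 9 tested genes of adenosine handling, 2 rose (2.53% of all genes tested) and 0 fell (1.94%), with a median log2 fold change of 0.71 against -0.05 over all genes tested. Including the shared library 2 rose and 1 fell, and 1 rose without day 6 replicate 1. Beside Nt5e this was Enpp1, named here after its values were seen, which encodes a surface enzyme that splits ATP into AMP and pyrophosphate. Enpp1 was 1161, 1540 and 936 at day 6 and 5090, 7100 and 3178 at day 14 (1.86 ± 0.34, adjusted p = 0.00355).

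**Figure D1:**
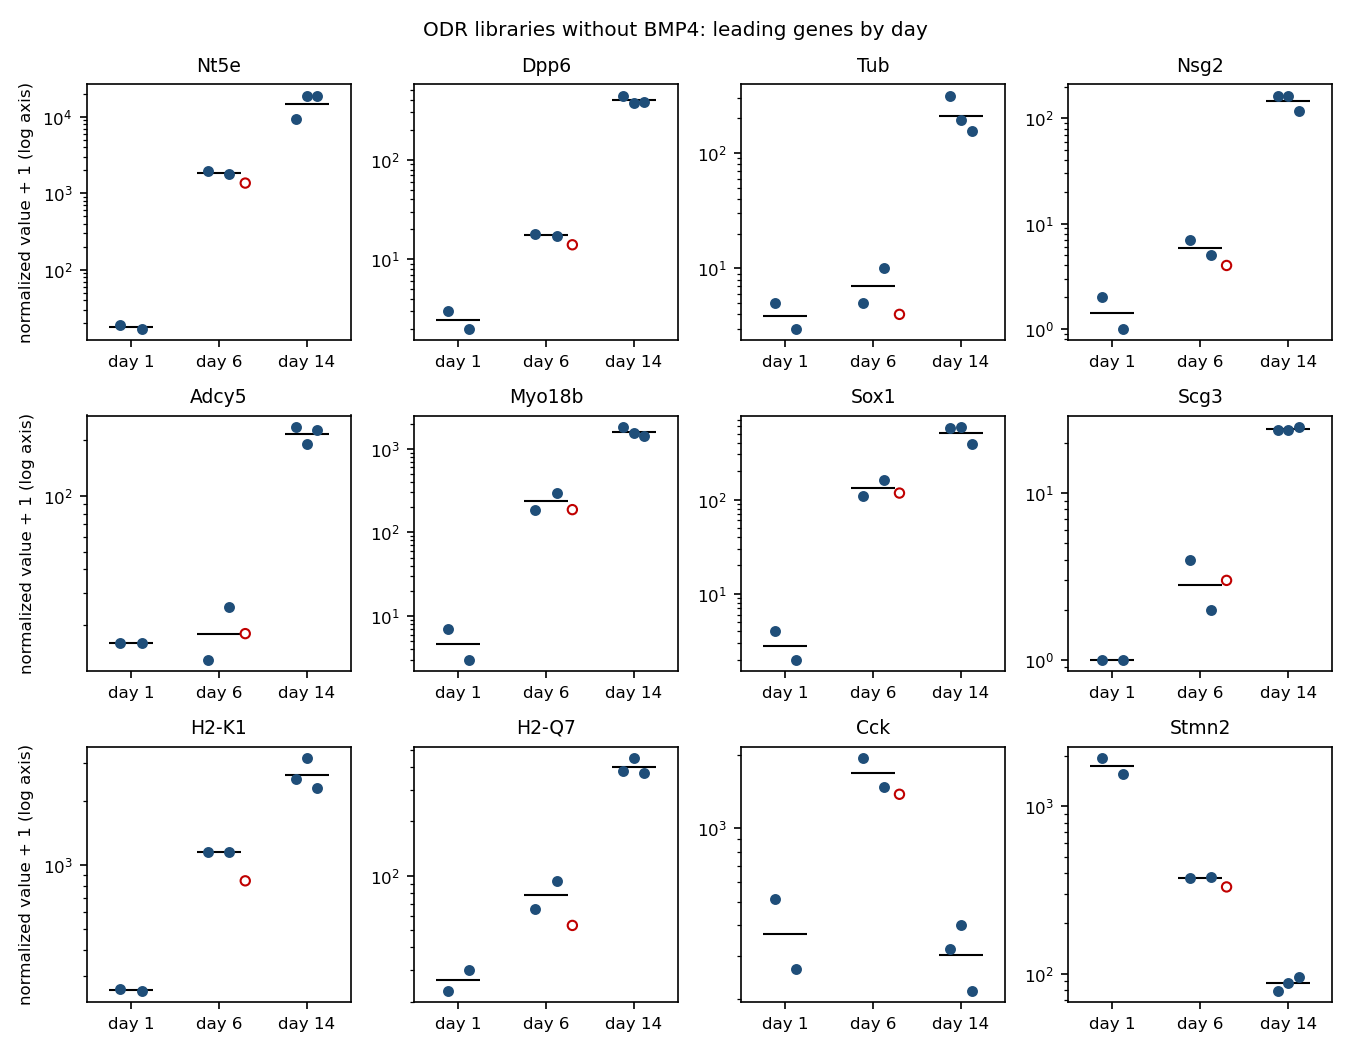
Normalized value + 1 on a log axis for 12 genes in ODR libraries without BMP4 at days 1, 6 and 14, with a filled point for each library and a line at the mean of the log2 values. The open red circle is the shared library of day 6, which is outside the mean. In all 12 genes the day 14 libraries lie on 1 side of all day 6 libraries. For the genes chosen as the largest rises and falls, this was a condition of the choice. Nt5e reaches 18690, and Cck and Stmn2 fall.

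The largest rises were sought among called genes with a day 14 mean of at least 100 and no overlap between day 6 and day 14 libraries. Tub, Nsg2 and Dpp6 led these. Tub (chromosome 7, 108950338 to 109034460, plus strand), the gene mutated in the tubby mouse and a carrier of receptors into cilia, was 4, 9 and 3 at day 6 and 310, 194 and 153 at day 14 (4.90 ± 1.07, adjusted p = 0.0128). Nsg2 (chromosome 11, 32000463 to 32059202, plus strand), a protein of neuronal endosomes, was 6, 4 and 3 and then 162, 161 and 116 (4.62 ± 0.74, adjusted p = 0.00156). Dpp6 (chromosome 5, 26817203 to 27727505, plus strand), an accessory subunit of Kv4 potassium channels, was 17, 16 and 13 and then 437, 376 and 384 (4.51 ± 0.36, adjusted p = 1.79e-06). Day 14 libraries were higher than any day 6 library by an order of magnitude in each of these genes. The lack of overlap itself was a condition of their choice. Iqsec3, an exchange factor for Arf proteins at inhibitory synapses, rose by 3.69 ± 0.51 and Mapt, the microtubule protein tau, by 2.81 ± 0.58. Trpc4, a cation channel, rose by 2.85 ± 0.55.

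Other large rises were those of Adcy5, Gnal, Rgs5 and Myo18b. Adcy5 (chromosome 16, 35154877 to 35305738, plus strand), an adenylyl cyclase, was 12, 24 and 17 at day 6 and 234, 189 and 226 at day 14 (3.59 ± 0.48, adjusted p = 0.000349). Gnal, the G protein alpha subunit that activates adenylyl cyclase in olfactory neurons and striatum, was 48, 45 and 39 and then 371, 270 and 272 (2.67 ± 0.35, adjusted p = 0.000283). Both genes act on cyclic AMP, and both were chosen from genes whose groups did not overlap. Rgs5, a pericyte-enriched regulator of G protein signalling, was 34, 28 and 20 and then 316, 358 and 91 (2.78 ± 0.60, adjusted p = 0.0122), with 1 day 14 library well below the other two. Myo18b (chromosome 5, 112688876 to 112896362, minus strand), a myosin needed for sarcomeres in muscle, was 186, 298 and 186 and then 1810, 1554 and 1431 (2.75 ± 0.53, adjusted p = 0.00548). Wipf3, an actin regulator, rose by 2.68 ± 0.57. Nsg2, Dpp6, Iqsec3, Adcy5 and Gnal kept their call without each library in turn. Without day 6 replicate 1, where day 6 rests on a single library assumed to vary like the other groups, the call was lost by Tub (adjusted p = 0.152), Trpc4 (0.0866), Mapt (0.105), Rgs5 (0.0838), Myo18b (0.101) and Wipf3 (0.0872). Without day 6 replicate 2 it was lost by Tub (0.0588), Mapt (0.0579), Rgs5 (0.106) and Wipf3 (0.0944), without day 14 replicate 1 by Tub (0.0508) and Rgs5 (0.0529), and without day 14 replicate 2 by Rgs5 (0.0529).

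The genes of neuronal cytoskeleton and secretion did not move as a block. Of 16 tested, 4 rose and 1 fell (median 0.67), against 2.53% and 1.94% of all genes, and between 1 and 3 rose without each library in turn. Of the 4, Scg3 passed the filter through day 14 alone. Scg3, a granin of secretory granules, was 3, 1 and 2 at day 6 and 23, 23 and 24 at day 14 (3.10 ± 0.34, adjusted p = 4.88e-05). The prohormone convertase Pcsk1 was 28, 26 and 19 and then 114, 118 and 99 (1.99 ± 0.54, adjusted p = 0.0414), and its inhibitor Pcsk1n was 8, 12 and 12 and then 83, 72 and 41 (2.56 ± 0.49, adjusted p = 0.00560). The ubiquitin hydrolase Uchl1 went from 194, 212 and 224 to 440, 434 and 431 (1.1 ± 0.31, adjusted p = 0.0479). Stmn2 (chromosome 3, 8509360 to 8561606, plus strand), a microtubule regulator of growing neurites, went the other way, from 370, 378 and 329 to 78, 87 and 95 (-2.10 ± 0.32, adjusted p = 0.000925), after 1942 and 1560 at day 1. Tubb3, the neuronal tubulin, was 9, 14 and 14 and then 34, 12 and 127, so its groups overlapped. Of 10 tested neural progenitor genes, 1 rose and 0 fell (median 0.95), 3 rose with the shared library and 0 without day 6 replicate 1. It was Nkx6-1, a transcription factor of the ventral neural tube and pancreatic beta cells, named here after its values were seen (11, 14 and 9, then 90, 92 and 73). Pax6 did not exceed 11 and Olig2 did not exceed 1 in the 6 libraries. Pcsk1 and Uchl1 lost their call without any 1 of the 5 libraries (adjusted p up to 0.203 and 0.267), and Pcsk1n lost it without day 6 replicate 1 (0.0979).

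Several major histocompatibility complex (MHC) class I genes rose, the classical genes H2-K1 and H2-D1 and 3 genes of the Q region. Class I molecules display peptides to T cells, and classical class I genes share a promoter block that binds NF-kappa B, interferon regulatory factors and, further downstream, CCAAT-binding factors. H2-K1 was 1148, 1148 and 842 at day 6 and 2536, 3172 and 2286 at day 14 (1.20 ± 0.14, adjusted p = 0.000101). H2-D1 was 1070, 1086 and 952 and then 2012, 2722 and 1894 (1.02 ± 0.18, adjusted p = 0.00251). H2-Q7, of the Q region, was 64, 92 and 52 and then 380, 448 and 369 (2.36 ± 0.31, adjusted p = 0.000283). In all 3 genes each day 14 library was above each day 6 library. H2-Q6 was higher by 2.44 ± 0.39 (adjusted p = 0.00154), but H2-Q6 and H2-Q7 are near-identical copies between which reads can be split. H2-Q4, the fifth gene to rise, went from 508, 514 and 449 to 1122, 1193 and 1054. The Q region genes H2-Q1 (adjusted p = 0.152) and H2-Q10 (0.437) were not called. They are in none of the 38 gene lists and are named after their values were seen. H2-Q1 was still higher in every day 14 library (23, 32 and 46, then 61, 65 and 90).

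The promoters of the first 3 are shown because these genes rose together and the shared block can be seen in them. They are 300 bases from RefSeq (GRCm38.p6, for H2-K1 the first of 2 entries), from 250 before the start to 50 after it, 5′ to 3′ on the gene's own strand. The capitals mark, in order, the kappa B core GGGGATT, the interferon regulatory motif GAANNGAAA (here on the opposite strand) and 2 CCAAT boxes, the first of them on the opposite strand. H2-K1 lies at chr17:34000298-34000597 (minus strand), H2-D1 at chr17:35262844-35263143 and H2-Q7 at chr17:35438905-35439204 (both plus strand).
H2-K1: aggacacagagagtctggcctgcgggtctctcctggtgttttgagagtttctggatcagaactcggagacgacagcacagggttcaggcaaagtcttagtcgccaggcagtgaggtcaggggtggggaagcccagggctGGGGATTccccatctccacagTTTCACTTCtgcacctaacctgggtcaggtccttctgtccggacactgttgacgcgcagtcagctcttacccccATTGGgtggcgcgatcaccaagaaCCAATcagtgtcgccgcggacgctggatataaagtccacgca
H2-D1: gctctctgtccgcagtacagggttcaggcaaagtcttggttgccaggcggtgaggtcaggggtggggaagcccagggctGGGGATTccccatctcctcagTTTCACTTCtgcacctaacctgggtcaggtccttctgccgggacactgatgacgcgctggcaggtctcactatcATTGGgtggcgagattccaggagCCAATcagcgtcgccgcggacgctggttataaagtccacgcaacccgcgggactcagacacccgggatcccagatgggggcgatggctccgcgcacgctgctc
H2-Q7: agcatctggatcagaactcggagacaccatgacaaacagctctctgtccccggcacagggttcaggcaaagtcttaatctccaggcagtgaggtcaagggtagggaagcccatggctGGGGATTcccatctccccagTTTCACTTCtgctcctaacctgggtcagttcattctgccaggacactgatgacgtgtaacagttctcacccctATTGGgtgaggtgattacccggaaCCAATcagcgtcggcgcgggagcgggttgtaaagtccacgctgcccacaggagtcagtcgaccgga
Both strands were searched, and none of the motifs overlap here. Of 32851 promoters of this length, 3.1% hold the kappa B core, 7.52% the interferon regulatory motif and 37.4% a CCAAT box, and 46 (0.14%) hold all of them, among which are those of H2-K1, H2-D1, H2-Q4, H2-Q6 and H2-Q7. A match describes letters and is not a measured binding site.

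Of the 17 tested genes of antigen presentation, 5 rose and 0 fell, against 2.53% and 1.94% of all genes tested. With the shared library 7 rose, against 4.54% of all genes. The median log2 fold change of the 17 in the main test was 0.63. B2m, the light chain of class I molecules, was near the top of the scale on both days (7091, 7091 and 6244, then 9301, 9301 and 7092), where steps are coarse, and was not called (0.26, adjusted p = 0.622). The peptide transporter genes Tap1 and Tap2 had log2 fold changes of 0.40 and 0.48, and the class I transactivator gene Nlrc5 0.63, and none of them passed the test. The tapasin gene Tapbp was lower at day 14 in every library (1747, 1935 and 1690, then 1362, 1348 and 1362) without passing it. The class I genes were not joined by interferon-stimulated genes at large. Of 26 of these tested, 0 rose and 1 fell, and all 26 had negative fold changes (median -0.62). The member that fell was Irf7, a transcription factor of the interferon response, from 199, 282 and 186 to 42, 84 and 105 (-1.71 ± 0.43, adjusted p = 0.0287). Irf7 lost its call without any of day 6 replicates 1 and 2 and day 14 replicates 1 and 2 (adjusted p from 0.0519 to 0.224). The antigen presentation count of 5 did not change by more than 1.5 times under any of the alternatives run.

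**Figure D2:**
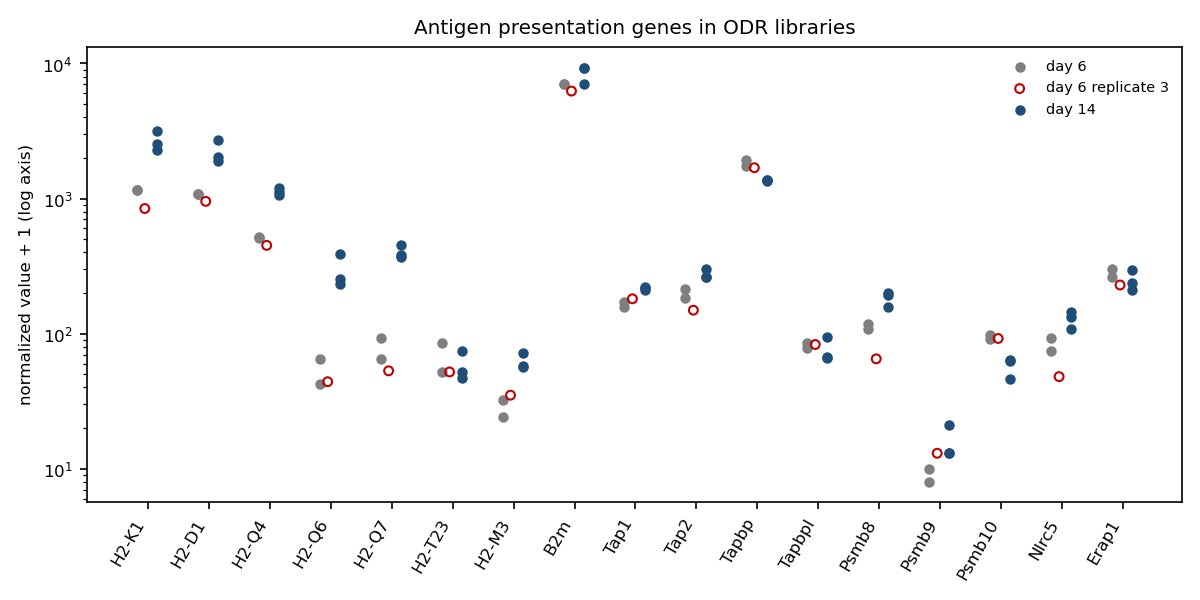
Normalized value + 1 on a log axis for the 17 genes of the antigen presentation list in ODR libraries. Grey points are day 6, open red circles the shared library of day 6, and blue points day 14. H2-K1, H2-D1, H2-Q4, H2-Q6 and H2-Q7 have day 14 points above all day 6 points and passed the test, and Tapbp and Psmb10 have day 14 points below.

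Several macrophage and leukocyte genes fell. Of 19 listed, 10 passed the filter on low values, and 0 of these rose and 5 fell, against 2.53% and 1.94% of all genes. Of the 5, Tyrobp, Fcer1g and Laptm5 passed the filter through day 6 alone, so the count is only a description. It was 6 with the shared library, where 4.42% of all genes fell. Lyz2, lysozyme, was 287, 120 and 258 at day 6 and 5, 28 and 32 at day 14 (-3.38 ± 0.80, adjusted p = 0.0212), and its near copy Lyz1 was listed at 0 in all 6 libraries. Cd68, a lysosomal protein of macrophages, was 117, 81 and 72 and then 20, 22 and 27 (-2.05 ± 0.29, adjusted p = 0.000576). The signalling adaptors Tyrobp (11, 8 and 11, then 0, 1 and 0) and Fcer1g (15, 15 and 10, then 0, 1 and 2) and the lysosomal gene Laptm5 (23, 8 and 16, then 0, 1 and 2) ended at or near 0. Not all genes of the list did this. Mpeg1, the macrophage perforin, stayed high at 650, 752 and 413 and then 714, 982 and 863, after 75 and 57 at day 1, and Mrc1, the mannose receptor, was 28, 25 and 12 and then 27, 22 and 23. Ptprc, the common leukocyte antigen, was 48, 0 and 39 and then 15, 12 and 19. The receptor gene Csf1r did not exceed 6 in any of the 6 libraries. Because of Mpeg1, the summed level of the list was 1299, 1107 and 902 at day 6 and 788, 1104 and 1012 at day 14, so the sums overlapped. Cd68, Tyrobp and Fcer1g kept their call without each library, Laptm5 lost it without day 6 replicate 1 (0.102), and Lyz2 lost it without day 6 replicate 1 (0.240), day 6 replicate 2 (0.0568) or day 14 replicate 1 (0.0937), so that 3 genes of the list were called without day 6 replicate 1.

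**Figure D3:**
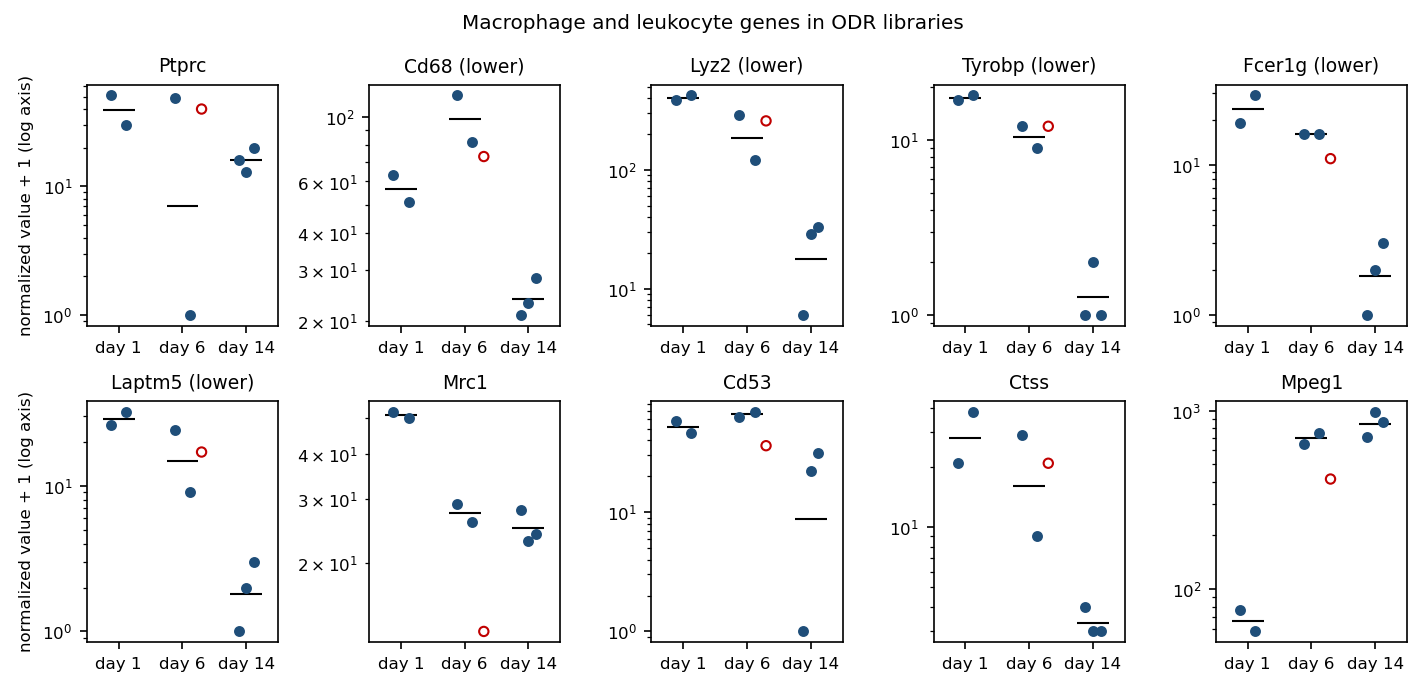
Normalized value + 1 on a log axis for the 10 tested genes of the macrophage and leukocyte list in ODR libraries at days 1, 6 and 14, drawn as for the leading genes. The 5 genes marked lower passed the test, and Mpeg1 stays between 413 and 982 at days 6 and 14.

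Complement genes went both ways, with 1 rise and 2 falls among 10 tested, against 2.53% and 1.94% of all genes. Of these 3, C4b passed the filter through day 14 alone and C1qb through day 6 alone. C4b, whose reads can be shared with its near copy C4a, was 0, 1 and 2 at day 6 and 8, 50 and 65 at day 14 (4.46 ± 0.98, adjusted p = 0.0129). C1qb, a chain of C1q that macrophages make, fell with the macrophage genes, from 14, 11 and 6 to 1, 2 and 4 (-2.11 ± 0.52, adjusted p = 0.0249), and the part of those genes in this result was not tested. Cd55, which protects cells from complement, fell from 226, 218 and 185 to 80, 109 and 111 (-1.16 ± 0.28, adjusted p = 0.0253). With the shared library 3 rose and 2 fell, against 4.54% and 4.42% of all genes. Without day 6 replicate 1 or 2 none of the 3 genes was called (adjusted p from 0.0568 to 0.204), C4b was lost without day 14 replicate 2 (0.0514), C1qb without day 14 replicate 1 or 2 (0.104 and 0.0652) and Cd55 without day 14 replicate 1 (0.102).

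A few genes of DNA replication fell by a small amount. Of 40 tested, 0 rose and 6 fell, against 1.94% of all genes, and 36 had negative fold changes (median -0.40). Orc1, the largest subunit of the origin recognition complex, was 36, 35 and 44 at day 6 and 15, 18 and 15 at day 14 (-1.11 ± 0.16, adjusted p = 0.000667). The single-strand binding subunit Rpa2 was 152, 136 and 154 and then 93, 85 and 88 (-0.69 ± 0.13, adjusted p = 0.00390). Rrm2, the regulated subunit of ribonucleotide reductase, was 440, 367 and 408 and then 256, 276 and 214 (-0.70 ± 0.16, adjusted p = 0.0165), and the helicase cofactor Gins1 was 42, 44 and 34 and then 23, 21 and 17 (-1.05 ± 0.27, adjusted p = 0.0328). These groups did not overlap. Of 34 mitosis genes all had negative fold changes (median -0.47), and 2 of them fell, Cdk1 and Hmmr, which are named here after their values were seen. The mitotic kinase Cdk1 was 368, 372 and 402 and then 256, 257 and 272 (-0.50 ± 0.09, adjusted p = 0.00495). With the shared library 10 replication and 5 mitosis genes fell, against 4.42% of all genes. Orc1 kept its call without each library. Rpa2 (0.0819), Rrm2 (0.216) and Gins1 (0.172) lost it without day 6 replicate 1, Rrm2 without day 14 replicate 3 (0.0558), and Gins1 without any other library (0.0555 to 0.180). Of the 6 replication genes, between 1 and 3 were called without any 1 library, and of the 2 mitosis genes 0 or 1.

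**Figure D4:**
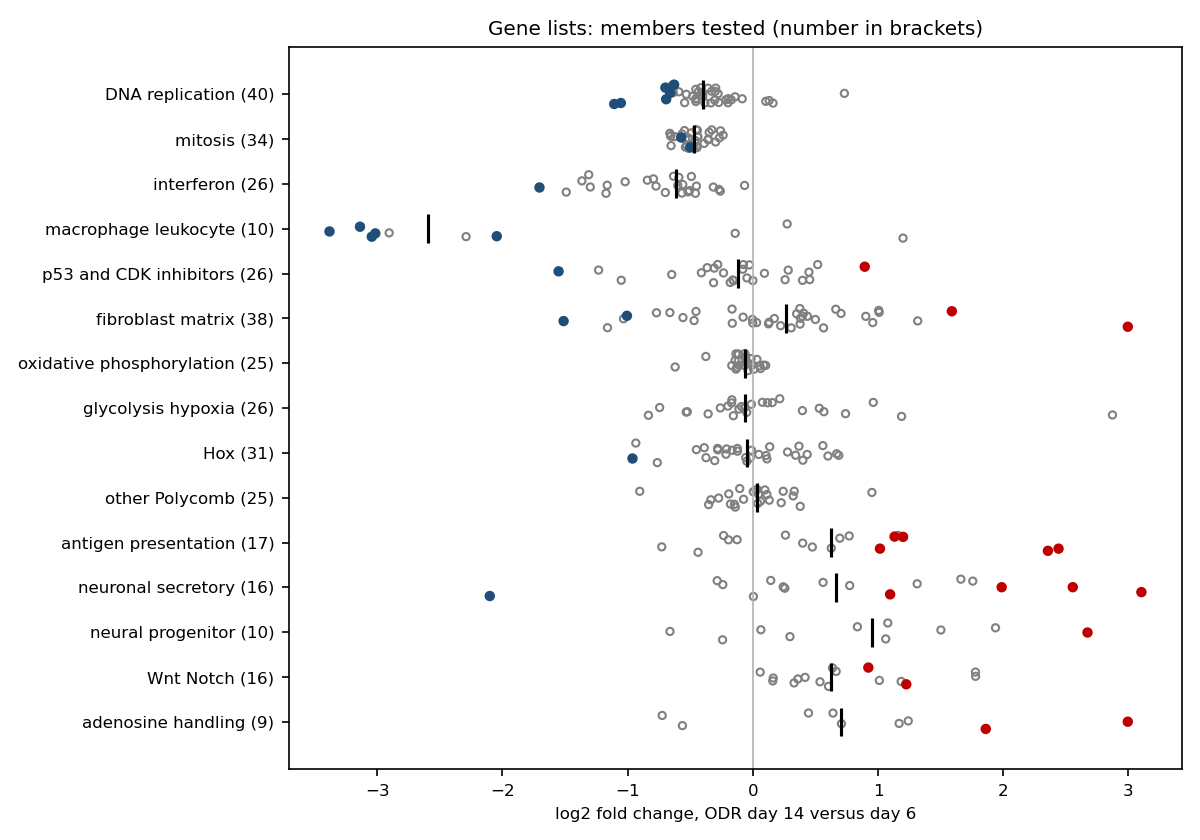
Log2 fold change of ODR day 14 against day 6 for the tested members of 15 gene lists, with their number in brackets. Filled points passed the test (red higher, blue lower), open points did not, and the black bar is the list's median. Replication, mitosis and interferon members lie mostly left of 0 by less than 1, and the medians of antigen presentation, neuronal, Wnt and Notch, and adenosine lists lie right of 0.

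Other large falls were those of Cck and Map6. Cck, the cholecystokinin precursor, had risen from 513 and 263 at day 1 to 1935, 1471 and 1376 at day 6 and was 320, 402 and 215 at day 14 (-2.48 ± 0.47, adjusted p = 0.00533). Map6, which stabilises microtubules in neurons, was 212, 226 and 194 and then 51, 60 and 72 (-1.84 ± 0.25, adjusted p = 0.000405). Like Stmn2, it had been higher still at day 1, at 827 and 723. Ptprn, a protein of dense core vesicles, had a log2 fold change of -1.60 ± 0.34 and Sptssb, a subunit of serine palmitoyltransferase, of -1.69 ± 0.44. Suox, the sulfite oxidase, fell by 1.48 ± 0.28 on this scale, and the value for the unconventional myosin gene Myo1d was -1.44 ± 0.24. Map6 and Myo1d kept their call without each library. Cck (0.0844), Ptprn (0.158), Suox (0.0626) and Sptssb (0.167) lost it without day 6 replicate 1, Sptssb (0.195) without day 6 replicate 2 and without any of the day 14 libraries (0.0617 to 0.108).

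Fibroblast and matrix genes were divided. Of 38 tested, 2 rose and 2 fell (median 0.26), against 2.53% and 1.94% of all genes, and 1 of the 2 that rose was Nt5e. Counts were 3 and 3 with the shared library, without the library labelled OA day 14 replicate 2 these were 5 and 5, and without day 6 replicate 1 or 2 they were 1 and 0. The other was Mmp2, a gelatinase, from 612, 822 and 664 to 2289, 1816 and 2350 (1.59 ± 0.36, adjusted p = 0.0165). Vim, the intermediate filament vimentin, was at 18690 in all day 6 libraries and at 9308 in all day 14 libraries, which is 1 step of the scale (-1.01, adjusted p = 0.0169). Fn1 of the same list, named after its values were seen, made the opposite step, from 9308 to 18690 in all libraries. It was not called (1.01, adjusted p = 0.0711), but passed with the shared library (adjusted p = 0.0235). S100a4, a calcium-binding protein of motile fibroblasts, had fallen from 1124 and 1079 at day 1 to 136, 124 and 189 and then to 36, 38 and 66 (-1.51 ± 0.31, adjusted p = 0.00858). Ccng1, a p53 target, went from 9294 in all day 6 libraries to 3488, 3168 and 2882 (-1.55 ± 0.19, adjusted p = 0.000106), and of the 26 tested genes of the p53 and CDK inhibitor list 1 rose and 1 fell (2.53% and 1.94% of all genes). These were 1 and 6 with the shared library, and 0 rose without day 6 replicate 1 or 2 or day 14 replicate 1 or 2. Shares of all genes with the shared library were 4.54% higher and 4.42% lower. The riser of the main test was the CDK inhibitor Cdkn1b, named after its values were seen, from 186, 192 and 185 to 422, 347 and 298. Mmp2 (0.187 and 0.0593), Vim (0.128 and 0.111) and S100a4 (0.100 and 0.0589) lost their call without day 6 replicate 1 or 2, and Mmp2 also without day 14 replicate 1 (0.0545).

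Of 16 tested genes of the Wnt and Notch pathways 2 rose and 0 fell, and all 16 had positive fold changes (median 0.62), against 2.53% and 1.94% of all genes called. The count was 4 with the shared library, without the library labelled OA day 14 replicate 2 it was 5, and without day 6 replicate 1 it was 0 and without day 6 replicate 2 or day 14 replicate 2 or 3 it was 1. The share of all genes that rose with the shared library was 4.54%. The 2 genes called in the main test are named after their values were seen. Dkk3, a secreted relative of Wnt inhibitors, was 230, 250 and 240 at day 6 and 596, 578 and 516 at day 14 (1.23 ± 0.24, adjusted p = 0.00592). The receptor gene Notch3 was 212, 280 and 306 and then 410, 448 and 540 (0.92 ± 0.25, adjusted p = 0.0387). Several lists held no called gene. There were 0 called among 9 tested pluripotency genes (median 0.00), 11 genes of PRC1.1 (0.13) and 25 further Polycomb genes (0.03). The same held for 25 oxidative phosphorylation genes (median -0.06), 26 glycolysis and hypoxia genes (-0.06) and 20 genes of TGF-beta signalling (0.01). The pluripotency median is the value of Pou5f1, whose change could not be measured at the ceiling. Of the 30 pluripotency genes listed, 21 were too low to be tested. Of 31 Hox genes 0 rose and 1 fell (-0.05). With the shared library 1 pluripotency gene, 1 oxidative phosphorylation gene, 1 glycolysis gene and 2 TGF-beta genes were called lower, and 1 Polycomb, 1 TGF-beta and 2 glycolysis genes higher.

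The change in ODR was set beside that in OA over the same days. The difference between the 2 changes was called at 0 of 12480 genes (0.0%) by limma, beside 833 at an unadjusted p below 0.05, and between 0 and 8 genes were called under the alternatives. The median SE of this difference was 0.28 on the log2 scale, and a p that misses the threshold does not show that the changes are alike. Of the 558 genes called in ODR, 526 (94.3%) had a fold change of the same sign in OA, as did 68.9% of all genes tested. Across all genes tested the fold changes had a Pearson r of 0.57 and a Spearman rho of 0.50, as a description, since genes are not independent replicates. Without the library labelled OA day 14 replicate 2 these values were 531 genes (95.2%), 70.5%, 0.63 and 0.55. In OA itself 1061 genes (8.5%) were called over these days, 4.04% higher and 4.46% lower. Of the 316 genes that rose in ODR 160 rose and 0 fell in OA, and of the 242 that fell 110 fell and 1 rose. Nt5e rose in OA by 1.91 ± 0.32 from 1490, 1378 and 1001 to 4217, 5616 and 4621, all below the ODR values of day 14. Tub was 34, 20 and 27 in OA at day 6 and 262 and 246 in 2 of the day 14 libraries, but 4 in the library labelled OA day 14 replicate 2, and was not called (adjusted p = 0.438, and 0.000127 without that library).

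The difference from OB was called at 4807 genes (38.5%), 2401 of them with a more positive change in ODR and 2406 with a more negative one. OB itself changed at 7202 genes (57.7%) over these days, 27.4% higher and 30.3% lower. Of the 316 genes that rose in ODR 92 rose and 69 fell in OB, and the difference was called at 219. Of the 242 that fell in ODR 128 fell and 55 rose in OB, and the difference was called at 133. The ODR change that selected these genes is part of the difference, so both counts are descriptions. For replication and mitosis genes the change was more negative in ODR at 37 of 40 and at 34 of 34 of them, against 19.3% of all genes. In OB their median changes were 1.45 and 1.49. Rrm2, for example, was 508, 395, 428 and 364 in OB at day 6 and 1244, 1232 and 1196 at day 14 (difference -2.24 ± 0.21, adjusted p = 1.61e-06), and Orc1 had a difference of -2.95 ± 0.21 (adjusted p = 1.10e-07).

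For antigen presentation the change was more positive in ODR than in OB at 12 of 17 genes and more negative at 0, against 19.2% and 19.3% of all genes. H2-K1 started at similar levels, with 960, 852, 922 and 896 in OB at day 6, and was 831, 1036 and 960 there at day 14 (difference 1.15 ± 0.19, adjusted p = 0.000146). H2-Q7 rose in both, by 2.56 in OB, and its difference of -0.20 was not called (adjusted p = 0.728). The fall of the macrophage genes was not called different for Lyz2 (2.26, adjusted p = 0.0953), Tyrobp, Fcer1g and Laptm5, and for Cd68 it was less steep in ODR (1.68, adjusted p = 0.00223). For several of the leading genes the difference came with unequal starting levels. Tub was already 260, 212, 308 and 257 in OB at day 6, Dpp6 326, 207, 252 and 214, and Myo18b 1553, 1193, 1310 and 1192, so that at day 6 these genes were higher in OB than in ODR in every library. Nt5e was 3012, 3694, 2412 and 3012 in OB at day 6 and 704, 2012 and 1636 at day 14, so it went down in OB while it rose in ODR (fitted difference 4.18 ± 0.46, adjusted p = 6.35e-06).

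**Figure D5:**
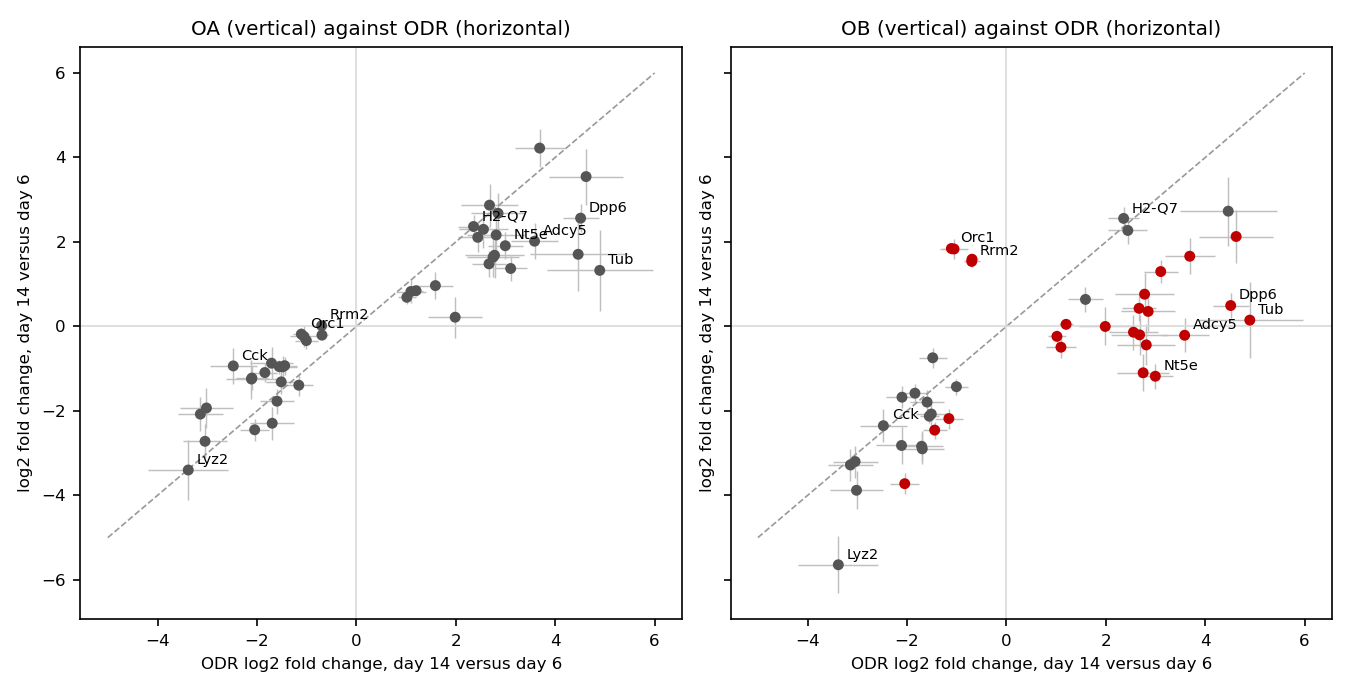
Log2 fold change from day 6 to day 14 in OA (left) and OB (right) against that in ODR for the 44 named genes that were called in ODR, with bars of 1 SE. Red points are genes whose change differed from ODR by the test of the difference, and the dashed line marks equal change. In OA all points but Rrm2 share the sign of ODR and none is red, and in OB Nt5e, Orc1 and Rrm2 are among those with the opposite sign.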

How the data were processed

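Poly-A RNA was sequenced in 35 mouse libraries. Per the submitters' processing notes, bcl2fastq, Bowtie2 2.2.5 and RSEM were used with build mm10. The authors deposited a normalized score per gene for 21350 genes as whole numbers that are not read counts. The normalization and the strand setting are not given in the sources used here, so reads of a gene and of an overlapping antisense gene cannot be told apart. The depth of the libraries is unknown, which leaves counting error out of reach.

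Scores were transformed as log2(score + 1). Genes with a score of at least 10 in at least 2 of the 6 ODR columns of days 6 and 14 were tested (12480), so a gene present in OA or OB alone is not. With 11 group means as its terms, a linear model was fitted to 27 libraries with limma 3.58.1 in R 4.3.3 (16 residual degrees of freedom, empirical Bayes moderation without trend or robust options). The groups were ODR, OA and OB without BMP4 at days 1, 6 and 14, and OB and ODR with BMP4 (10 ng/ml) at day 6. They share 1 estimate of the spread. The library with identical values under 2 labels entered neither group, and libraries without a replicate label entered no test. Tests were two-sided with Benjamini-Hochberg adjustment over all genes of a comparison and a threshold of 0.05. The fit was also run on simulated data with 200 changed genes, and its outcome there is not given here. Python 3.11.15 with pandas 2.3.3 made the summaries, and matplotlib 3.10.9 the figures.

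Gene coordinates are from GENCODE M21 and promoters from RefSeq, both on GRCm38, the assembly that mm10 names. The libraries and the 38 gene lists were chosen with earlier results of these data known, so list counts are descriptions. Named genes are Nt5e, Sox1, Pou5f1, Kdm2b and Kdm2a, the top 12 risers and top 12 fallers by fold change among called genes with no overlap between day 6 and day 14 libraries and a higher group mean of at least 100, and, from each list with at least 3 called members, up to 4 risers and 4 fallers ranked by adjusted p. A gene that met this rule and is not reported here was left out. Other genes named were chosen after their values were seen, as the text says. Whether replicate numbers pair these libraries is not known, and the main fit used no block. The correlations of same-numbered deviations were -0.011, -0.053 and 0.122, and those of the other pairs lay between -0.109 and 0.118. With so few libraries, 1 of them the shared library, these values cannot settle the pairing.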

Additional observations from a re-analysis of the deposited data

Results flagged for a closer look

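The change from day 6 to day 14 differed between ODR and OB at 4807 genes (38.5% of all tested), by the interaction test in limma with Benjamini-Hochberg adjustment. Among the 48 named genes it differed at 27. Most of these were named for a called ODR change, which is part of the difference, so the 27 is a description only. Values are the ODR change minus the OB change on the log2 scale. The difference was negative for Orc1 (-2.95), Gins1 (-2.89), Rpa2 (-2.28) and Rrm2 (-2.24). For these 4, which serve DNA replication, the ODR change was negative and the OB change positive. It was positive for Myo1d (1.01), Cd55 (1.02), H2-K1 (1.15), H2-D1 (1.25) and Cd68 (1.68). Myo1d, Cd55 and Cd68 fell in both, by less in ODR. It was also positive for Uchl1 (1.59), Scg3 (1.81), Pcsk1 (1.99), Iqsec3 (2.03), Gnal (2.24), Nsg2 (2.49), Sox1 (2.63), Pcsk1n (2.69), Mapt (3.25), Dpp6 (4.02) and Tub (4.75). The remaining differences were those of Kdm2b (1.95), Rgs5 (2.02), Trpc4 (2.5), Wipf3 (2.88), Adcy5 (3.79), Myo18b (3.85) and Nt5e (4.18, with day 14 values at the ceiling). For Kdm2b the OB value left the ceiling at day 14 and ODR was level, so this difference describes OB. Without each ODR library in turn 18 of the 27 kept their call. The others were Nsg2 (lost without any of the 5, adjusted p up to 0.152), Cd55 (lost without either day 6 library or day 14 replicate 2 or 3, up to 0.101) and Pcsk1 and Rgs5 (lost without either day 6 library or day 14 replicate 1 or 2, up to 0.0914 and 0.140). Sox1 lost it without day 6 replicate 1 (0.106) or day 14 replicate 1 or 2 (0.0519 and 0.0543), Myo1d without day 6 replicate 2 (0.0521), and Iqsec3 (0.134), Trpc4 (0.0502) and Tub (0.0592) without day 6 replicate 1. The ODR and OB groups at days 6 and 14 hold 2 to 4 libraries, of which only OB at day 6 has 4.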

How the results depend on the processing

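The count of 558 genes rests on 2 day 6 libraries. It was 1117 with the shared library, 1033 in a fit of only the 6 ODR libraries, 1108 without the library labelled OA day 14 replicate 2, which enters through the pooled spread, and 143 to 487 without each of the 5 libraries in turn, lowest without day 6 replicate 1 (143) and replicate 2 (198). Under the other alternatives (a fit of only the 5 ODR libraries, pseudocount, filter, centring, quantile normalization, trend and robust moderation, ceiling genes left out, the last chosen after seeing the data) it was 452 to 714. All 558 were among the 1108. The difference from OB stayed within 1.5 times of 4807 genes in every alternative run. The difference from OA was called at 2 genes with the shared library, 1 without the library labelled OA day 14 replicate 2, 1 with no filter, 8 with a pseudocount of 10, 1 after quantile normalization and 0 to 6 without each library. No named gene reversed, 19 of the 44 called kept their call without each library and 18 under every alternative run. A replicate block in the pooled fit gave 653 genes, and a replicate block in a fit of the 3 same-numbered pairs of ODR libraries gave 508. Not every library correlated best with its own number. What sets these counts apart was not tested.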

Other observations

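The families in this section were chosen after the values were seen, so their counts are descriptions and no test is attached to them. Some Hedgehog pathway genes rose. Of 13 tested, 4 rose and 0 fell, beside 2.53% and 1.94% of all genes, and 3 of the 4 passed the filter on low values through day 14 alone. The ligand Ihh was 2 and 0 at day 6, with 0 in the shared library, and 26, 25 and 12 at day 14. The target and activator Gli1 was 0, 3 and 3 and then 34, 25 and 20. The transcription factor Gli2 was 82, 102 and 111 and then 294, 284 and 216 (1.51 ± 0.27, adjusted p = 0.00381). Fold changes were positive for 11 of the 13 and negative for 2, neither of which was called. These 2 were lower in every day 14 library, Gli3 (198, 270 and 222, then 171, 150 and 152) and Cdon (228, 178 and 202, then 143, 165 and 140).

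Some families of channel, receptor and enzyme genes were counted in the same way, beside the same shares of 2.53% and 1.94% of all genes. Of 14 ionotropic glutamate receptor genes 4 rose and 0 fell. Among the 4 were Gria1 (61, 98 and 58, then 408, 424 and 334) and the kainate receptor gene Grik1 (31, 36 and 22, then 192, 166 and 176). Fold changes were positive for 11 of the 14 and negative for 3, Gria3, Grin1 and Grin3a, which were not called. Of 17 voltage-gated calcium channel genes 4 rose and 0 fell, and Cacna1e went from 81, 146 and 104 to 597, 404 and 342. Of 35 potassium channel genes 5 rose and 1 fell, and Kcnj5 went from 165, 327 and 172 to 1492, 1160 and 983. Of these 5, 3 passed the filter on low values through day 14 alone, and the 1 that fell passed it through day 6 alone. In each of the glutamate receptor and calcium channel families, 1 of the 4 that rose passed it through day 14 alone. Of 9 adenylyl cyclase genes 3 rose and 0 fell, Adcy3 and Adcy6 beside Adcy5, and of 20 phosphodiesterase genes 1 rose and 0 fell (median -0.07). The phosphodiesterase gene that rose also passed the filter through day 14 alone. All 10 tested beta protocadherin genes, which lie in 1 cluster and resemble each other in sequence, had positive fold changes and 4 of them rose (median 1.01). All 9 tested annexin genes had negative fold changes and 3 of them fell (median -0.62).

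Of 21 tested direct targets of BMP signalling 2 rose and 0 fell over these days, beside 2.53% and 1.94% of all genes. Fold changes were positive for 10 and negative for 11 (median -0.03). The summed level of the 28 listed was 7791, 7124 and 5822 at day 6 and 5366, 6202 and 6027 at day 14, so the sums overlapped. The number that rose was 5 with the shared library, where 4.54% of all genes rose. It was also 5 without the library labelled OA day 14 replicate 2. Without day 14 replicate 2 or 3 it was 1. Id3, an inhibitor of differentiation factors, was 20, 22 and 28 at day 6 and 107, 98 and 166 at day 14 (2.46 ± 0.42, adjusted p = 0.00226), below the 780 of the library with BMP4 at day 6. The contractile genes Des, desmin, and Mylk, myosin light chain kinase, were the 2 of 15 in their list that rose, 3 with the shared library, 0 without day 6 replicate 1 or 2 and 1 without day 14 replicate 1 or 2. The share of all genes that rose was 2.53%, and 4.54% with the shared library. Des went from 216, 298 and 174 to 1105, 1450 and 775, and Mylk from 178, 212 and 146 to 431, 474 and 518. The smooth muscle actin gene Acta2 was 212, 252 and 214 and then 280, 260 and 298, which did not pass the test, after 5077 and 9301 at day 1.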
